A study of Mus musculus with 12 samples.

Results

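REG3 lectins and 6 other genes of mucosal defence were followed in mouse ileal enteroids, cultures of intestinal epithelium grown from the ileum of C57Bl/6 mice. The 9 genes, out of 18068 in the deposited count table, were taken by name: Reg3a, Reg3b, Reg3g, Lcn2, Saa1, Saa2, Nos2, Dmbt1 and Pigr. The 12 libraries of poly(A) RNA formed 4 groups of 3, namely enteroids given 1 mM butyrate for 48 h and 20 ng/mL IL-13 for 72 h, IL-13 alone, butyrate alone, or neither. Every group was of the same wild-type strain, and the sources used here do not say which agent was added first. IL-13 is a type 2 cytokine, and butyrate is a short-chain fatty acid made by gut bacteria that inhibits histone deacetylases.

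The intestinal epithelium keeps microbes at a distance partly by secreting proteins. REG3 proteins are C-type lectins of enterocytes and Paneth cells; mouse REG3G binds Gram-positive bacteria, and IL-22 acting through STAT3 is a known inducer of Reg3b and Reg3g. Serum amyloid A proteins, lipocalin 2 and inducible nitric oxide synthase are typically raised in inflamed epithelium, while the polymeric immunoglobulin receptor carries IgA into the lumen.

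Library totals ran from 13867982 to 15618074 counts with both agents, 14239405 to 15008598 with IL-13, 17006538 to 24294456 with butyrate and 16303915 to 22558599 in untreated enteroids. Levels are counts scaled by the TMM-adjusted library size (CPM), fold changes are log2 ± standard error, and a gene was called at an edgeR quasi-likelihood adjusted p under 0.05 over 13750 genes. The filter on low counts kept 7 of the 9 genes and left out Lcn2 and Saa2. Shares of all genes given below are over these 13750 tested genes. Per the headers, the deposited rows had a corrected p under 1 in the authors' test of IL-13 against untreated. The shares do not cover genes outside those rows, and the effect of that selection on them was not tested. Nothing in the labels says that replicates were separate animals or cultures, and so p-values here reflect just the spread among these libraries, which may be technical. Epithelial markers summed to at least 6018 CPM in every library. Of 12 immune markers 10 were in the table, and they summed to 34.5 to 36.6 CPM with both agents, 31.4 to 36.9 with IL-13, 30.9 to 33.6 with butyrate and 28.9 to 33.4 untreated. Most of that was Csf1r and Itgam, while the leukocyte marker Ptprc stayed at or below 0.721 CPM. The B cell marker Ms4a1 and S100a8 were at 0 with both agents, Cd3e and Ms4a1 with IL-13, and Cd3e and S100a8 with butyrate. Of 5 tested immune markers, IL-13 raised 1, Cd68, which averaged 5.41 ± 1.53 CPM with both agents, 5.19 ± 1.45 with IL-13, 2.68 ± 0.115 with butyrate and 2.49 ± 0.127 untreated. Butyrate raised 2, Ly6g (log2 fold change 0.99 ± 0.27, edgeR adjusted p = 0.0289) and Lyz2 (2.01 ± 0.60, edgeR adjusted p = 0.049), in the comparison in which Reg3b and Reg3g rose. Both were at low levels. Ly6g averaged 3.56 ± 0.655 CPM with butyrate and 1.80 ± 0.16 untreated, and Lyz2 1.18 ± 0.293 and 0.302 ± 0.262. Pecam1, the 1 endothelial marker tested, rose with IL-13 (1.23 ± 0.46, edgeR adjusted p = 0.0376) and stayed at or below 1.17 CPM. The part of these markers in the results was not tested. Butyrate replicate 2 and butyrate + IL-13 replicate 3 stood apart in Lars2, a mitochondrial leucyl-tRNA synthetase gene, with 5048 and 6983 CPM, against at most 1281 CPM in untreated libraries.

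The sequences just upstream of the REG3 and serum amyloid A genes are shown because each family's members lie close together on a chromosome, and the comparisons below set them side by side. Each is the 200 bases before the RefSeq start on GRCm38.p6, 5′ to 3′, with motif matches in capitals. Reg3b (chr6:78370685-78370884, plus strand), Reg3a (chr6:78380509-78380708, plus strand) and Reg3g (chr6:78468875-78469074, minus strand) share a cluster on chromosome 6.

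Reg3b: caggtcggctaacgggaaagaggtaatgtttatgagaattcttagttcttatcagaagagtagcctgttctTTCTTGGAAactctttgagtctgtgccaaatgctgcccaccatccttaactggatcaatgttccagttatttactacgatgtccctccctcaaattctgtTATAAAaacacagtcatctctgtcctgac

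Reg3a: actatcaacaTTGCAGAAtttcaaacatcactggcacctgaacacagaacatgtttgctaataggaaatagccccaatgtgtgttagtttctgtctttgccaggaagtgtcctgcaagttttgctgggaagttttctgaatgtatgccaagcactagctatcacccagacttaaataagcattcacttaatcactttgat

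Reg3g: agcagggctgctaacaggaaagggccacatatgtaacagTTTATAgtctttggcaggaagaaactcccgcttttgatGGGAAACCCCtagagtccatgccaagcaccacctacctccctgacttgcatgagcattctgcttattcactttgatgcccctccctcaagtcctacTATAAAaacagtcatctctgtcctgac

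Saa1 (chr7:46742981-46743180, minus strand) and Saa2 (chr7:46751633-46751832, plus strand) face away from each other on chromosome 7.

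Saa1: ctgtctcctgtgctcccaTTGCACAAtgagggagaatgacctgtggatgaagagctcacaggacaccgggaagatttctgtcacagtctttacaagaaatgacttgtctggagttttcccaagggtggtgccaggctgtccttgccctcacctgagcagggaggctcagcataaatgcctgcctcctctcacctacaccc

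Saa2: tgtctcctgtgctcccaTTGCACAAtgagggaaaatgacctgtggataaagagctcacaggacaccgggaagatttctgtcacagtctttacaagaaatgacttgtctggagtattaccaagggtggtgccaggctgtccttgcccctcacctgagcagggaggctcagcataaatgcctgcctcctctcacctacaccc

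The capitals mark TTCNNNGAA, the spacing of STAT3 sites, in Reg3b; TTGCNNAA, a C/EBP core, in Reg3a, Saa1 and Saa2; an NF-kB match in Reg3g; and TATAAA on either strand in Reg3b and Reg3g. No match overlapped another. Both strands of the 250 bases before each start were searched, and of 32851 such windows 7.02% held TTCNNNGAA, 9.56% TTGCNNAA, 3.9% the NF-kB motif and 12.4% TATAAA. Windows were found for 7 of the 9 genes, without Nos2 and Dmbt1. The STAT6-type spacing of STAT sites was also searched, and 5.85% of all windows held it. Among the 7 genes it was found in 1, Lcn2, and so in none of the REG3 or serum amyloid A sequences shown. TTGCNNAA was found in 4 of the 7, the genes marked above and Lcn2, whose sequence is not shown. The Saa1 and Saa2 windows were identical at 195 of 199 aligned bases (98.0%), those of Reg3b and Reg3g at 69.5%, and that of Reg3a at 53.5% with either. A match is a string of letters only, and binding was not measured.

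IL-13 alone lowered 5 of the 7 tested genes and raised 1, Saa1, in a comparison that called 43.5% of all genes, 21.8% higher and 21.7% lower. The members' median log2 fold change was -2.11, beside -0.01 over all tested genes. Dmbt1, Reg3a, Reg3g, Nos2 and Pigr fell. Butyrate alone raised Reg3b and Reg3g and lowered Dmbt1 and Pigr, where 7.9% of all genes were called, 5.14% higher and 2.76% lower, and the members' median was 0.73 beside -0.01. Butyrate on top of IL-13 raised Saa1 and Reg3g and lowered none, where 21.2% of genes were called, 9.85% higher and 11.3% lower, with medians of -0.01 and -0.01.

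IL-13 on top of butyrate raised Saa1 and lowered 5 genes, Reg3a, Reg3b, Reg3g, Nos2 and Dmbt1, where 47.7% of genes were called, 22.9% higher and 24.9% lower, with medians of -1.78 and -0.04. Both agents over untreated raised Saa1 and lowered Reg3a, Reg3g, Nos2, Dmbt1 and Pigr, where 59.7% were called, 28.2% higher and 31.5% lower, with medians of -1.47 and -0.05. The 5 comparisons share groups of libraries. With library totals alone in place of TMM, the median of all genes moved to -0.18 for IL-13, -0.08 for butyrate, -0.14 for butyrate added to IL-13, -0.27 for IL-13 added to butyrate and -0.34 for both over untreated. The share of called genes that were higher was then 28.1%, 47.0%, 19.7%, 22.6% and 23.9% in that order, against 50.1%, 65.1%, 46.5%, 47.9% and 47.3% with TMM. Only Pigr among the members changed the sign of a fold change with this scaling, in IL-13 added to butyrate.

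**Figure D1:**
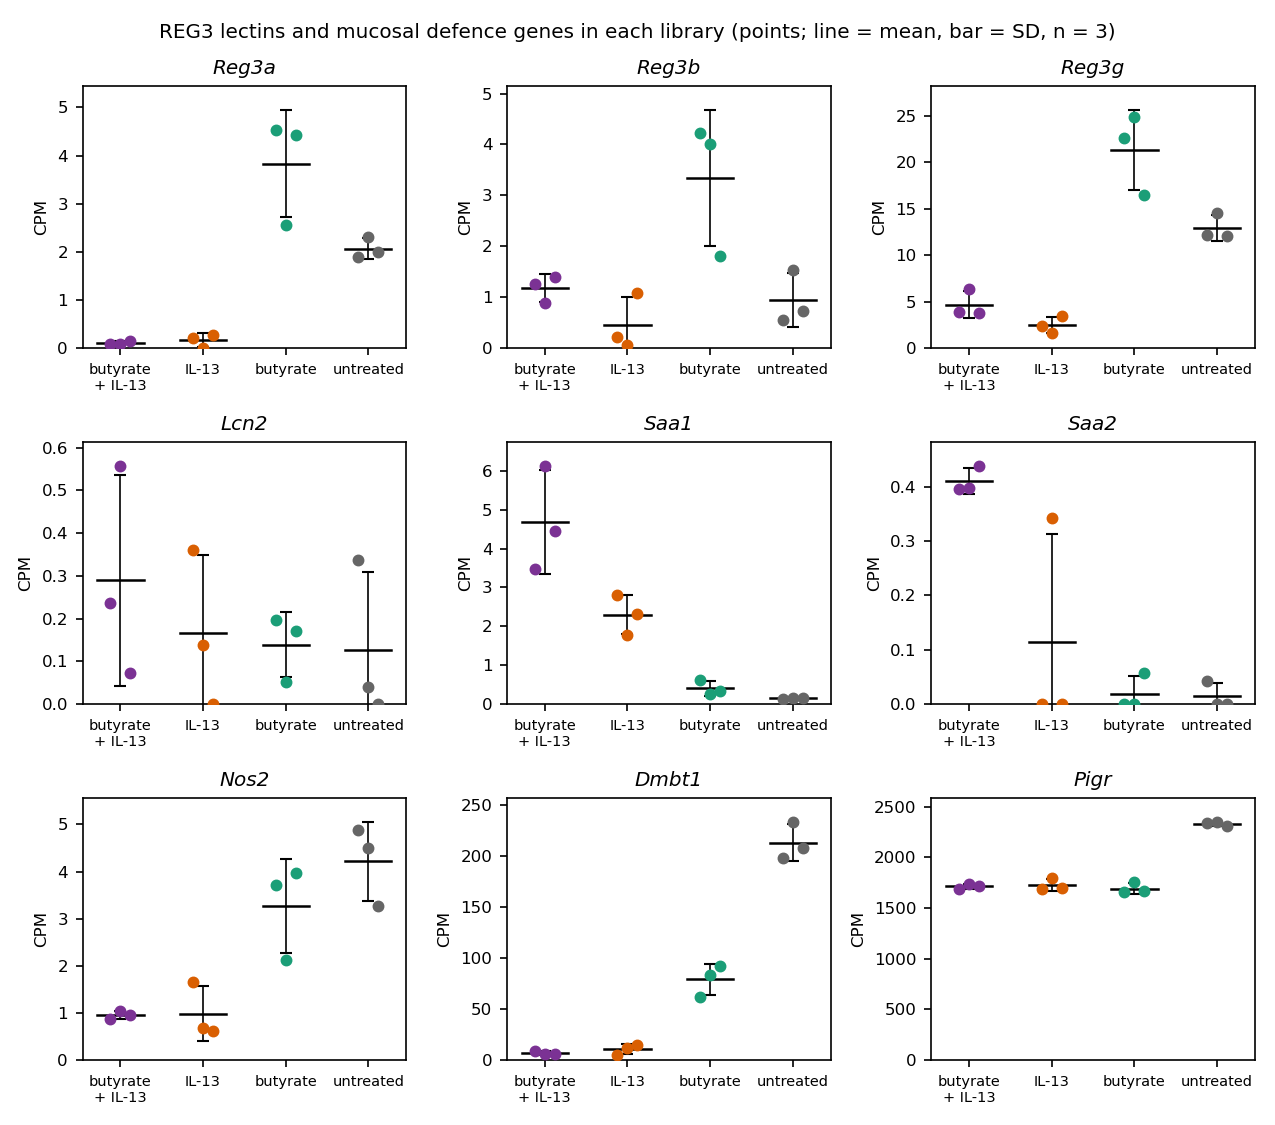
Level of each of the 9 genes in CPM (vertical axis, from 0, scaled per gene) in the 3 libraries of each group (points), with the group mean (line) and SD (bar, ending at 0 where it would go below). Saa1 was highest with both agents, Dmbt1 was at 5.12 to 14.8 CPM with IL-13 and at 198 to 234 CPM untreated, and Lcn2 overlapped between all groups.

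The REG3 lectins were read first. Reg3g, the most abundant of them per kilobase of transcript in every group, had 3.88, 6.37 and 3.80 CPM with both agents, 2.38, 1.65 and 3.40 CPM with IL-13, 22.7, 24.9 and 16.5 CPM with butyrate, and 12.2, 14.5 and 12.03 CPM untreated. No pair of groups overlapped, and the order ran from butyrate through untreated and both agents to IL-13. Reg3g fell with IL-13 (log2 fold change -2.38 ± 0.25, edgeR adjusted p = 4.0e-07) and fell when IL-13 was added to butyrate (-2.19 ± 0.22, edgeR adjusted p = 2.8e-07). It rose with butyrate alone (0.73 ± 0.20, edgeR adjusted p = 0.0269) and with butyrate added to IL-13 (0.91 ± 0.28, edgeR adjusted p = 0.0253). The log2 difference between these butyrate effects was 0.18 ± 0.34 (edgeR adjusted p = 0.93). With both agents Reg3g stayed below untreated (-1.47 ± 0.23, edgeR adjusted p = 2.3e-05).

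Both increases with butyrate were near the threshold. The call of Reg3g for butyrate alone was lost without any of 5 single libraries, untreated replicates 1, 2 and 3 and butyrate replicates 1 and 2, with edgeR adjusted p of 0.0538 to 0.126, and also without both libraries highest in Lars2 (0.61, edgeR adjusted p = 0.0589). For butyrate added to IL-13 it was lost without IL-13 replicate 1, IL-13 replicate 2 or butyrate + IL-13 replicate 2, with edgeR adjusted p of 0.0752 to 0.138. Paneth cell markers summed to 1390 to 2076 CPM with both agents, 2741 to 3786 with IL-13, 3484 to 4391 with butyrate and 2168 to 2984 untreated. Defa17 was near the floor in every group, with 0 counts with both agents, 1 with IL-13, 2 with butyrate and 2 untreated. Of 5 tested Paneth markers, IL-13 raised Ang4 (1.90 ± 0.15) and lowered 3, Mmp7, Lyz1 (-1.84 ± 0.16) and Itln1 (-0.53 ± 0.18). Butyrate raised Lyz1 (1.32 ± 0.16) and lowered none, and butyrate added to IL-13 raised Lyz1 (0.63 ± 0.16) and lowered 4. Absorptive enterocyte markers summed to a mean of 7662 CPM with both agents, 5943 with IL-13, 5171 with butyrate and 3978 untreated. Of 6 tested, IL-13 raised 3 and lowered 1, butyrate raised 2 and lowered 1, and butyrate added to IL-13 raised 2 and lowered 2. The part of Paneth and enterocyte markers in the result was not tested. In bulk RNA, fewer cells of a type and less RNA per cell cannot be told apart.

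Reg3a is the mouse gene named as the counterpart of the human antibacterial lectin. When IL-13 was added to butyrate, it had the largest fitted fold change of the 7 tested genes. With IL-13 alone, and with both agents over untreated, it moved less than Dmbt1 and Saa1. It had 0.0791, 0.0796 and 0.146 CPM with both agents, 0.216, 0 and 0.272 CPM with IL-13, 4.54, 2.55 and 4.42 CPM with butyrate, and 1.89, 2.31 and 2.00 CPM untreated. The 6 libraries given IL-13 held 11 counts in all, 4 with both agents and 7 with IL-13, and overlapped each other but no library without IL-13. Reg3a fell with IL-13 (-3.61 ± 0.52, edgeR adjusted p = 2.1e-05) and when IL-13 was added to butyrate (-5.13 ± 0.55, edgeR adjusted p = 4.9e-07). Butyrate over untreated gave 0.89 ± 0.32 (edgeR adjusted p = 0.103), not called although the groups did not overlap, and without both libraries highest in Lars2 it was called at 1.11 (edgeR adjusted p = 0.0327). Butyrate added to IL-13 gave -0.62 ± 0.94 (edgeR adjusted p = 0.691).

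Reg3b, a lectin known in mice for defence against Gram-negative bacteria, was the tested member whose level with both agents overlapped untreated. It had 1.27, 0.876 and 1.39 CPM with both agents, 0.216, 0.0687 and 1.09 CPM with IL-13, 4.22, 4.004 and 1.81 CPM with butyrate, and 0.547, 1.54 and 0.721 CPM untreated. All butyrate libraries lay above all others, while IL-13 replicate 3 lay far above the other IL-13 libraries. Reg3b rose with butyrate (1.82 ± 0.48, edgeR adjusted p = 0.0254) and fell when IL-13 was added to butyrate (-1.51 ± 0.51, edgeR adjusted p = 0.0202). The first call was lost without untreated replicate 1 or 3 or butyrate replicate 1 or 2, with edgeR adjusted p of 0.0621 to 0.13, and the second without butyrate replicate 1 or butyrate + IL-13 replicate 2 (0.0719 to 0.0889). Without both libraries highest in Lars2 they stood at edgeR adjusted p = 0.0516 and 0.0633.

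IL-13 over untreated gave -1.03 ± 0.64 for Reg3b (edgeR adjusted p = 0.212), and without IL-13 replicate 3 it was called at -2.69 (edgeR adjusted p = 0.0145). Butyrate added to IL-13 gave 1.34 ± 0.67 (edgeR adjusted p = 0.168), and without that library 3.01 (edgeR adjusted p = 0.0198). Both calls turned on that library.

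Summed over the 3 genes, REG3 lectins stood at 5.96 ± 1.18 CPM with both agents, 3.10 ± 1.54 with IL-13, 28.5 ± 5.00 with butyrate and 15.9 ± 2.15 untreated (SD, n = 3). The 3 genes were also counted as a single feature. Their sum fell with IL-13 (-2.36, edgeR adjusted p = 4.9e-07) and when IL-13 was added to butyrate (-2.26, edgeR adjusted p = 2.1e-07). It rose with butyrate (0.84, edgeR adjusted p = 0.0122) and with butyrate added to IL-13 (0.94, edgeR adjusted p = 0.0213). The sum was not refitted with single libraries left out, and most of its counts were those of Reg3g. Reg3g made up 78.4% of the family's counts with both agents, 79.9% with IL-13, 74.6% with butyrate and 81.1% untreated. The share of Reg3a was 1.73% with both agents and 5.22% with IL-13, against 13.4% with butyrate and 12.9% untreated; the first 2 rest on 4 and 7 counts, and a difference in makeup was not tested. Transcripts of the 3 genes aligned at 73.8% to 74.3% identity, with identical runs of at most 35 bases.

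**Figure D2:**
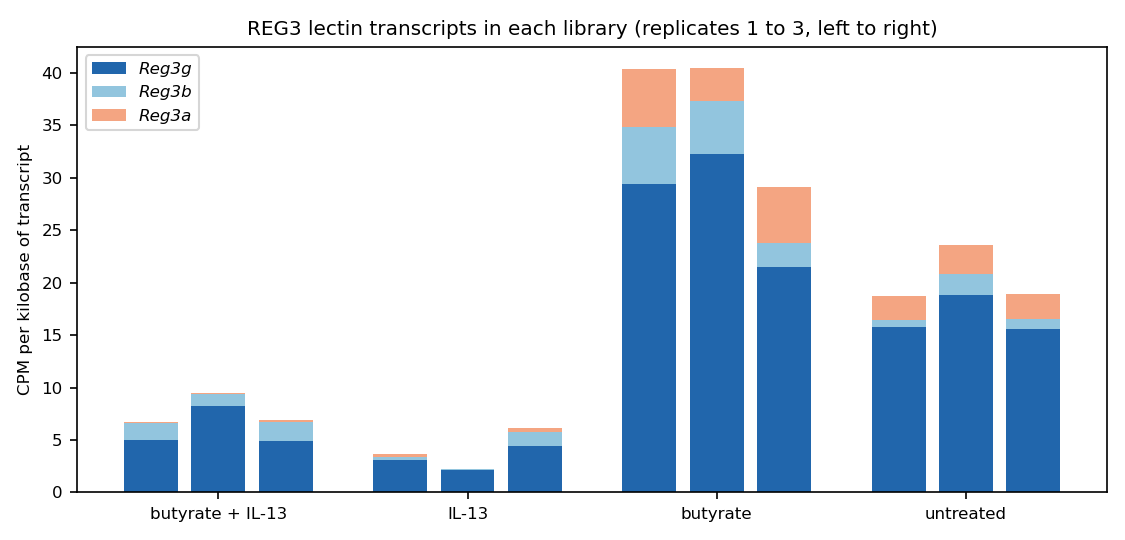
REG3 lectin transcripts in CPM per kilobase of transcript (vertical axis, from 0) in each library, stacked by gene, replicates 1 to 3 from left to right within each group. Reg3g is the largest block in all 12 libraries, and the Reg3a block is thinnest in the libraries given IL-13.

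The acute phase gene Saa1, which encodes a lipid-carrying protein induced in inflammation, was the member that rose with IL-13. It had 3.48, 6.13 and 4.46 CPM with both agents, 2.81, 1.79 and 2.31 CPM with IL-13, 0.626, 0.260 and 0.340 CPM with butyrate, and 0.126, 0.162 and 0.166 CPM untreated. No pair of groups overlapped, and untreated libraries held 3 or 4 counts each. IL-13 raised it (3.87 ± 0.46, edgeR adjusted p = 2.1e-06), also on top of butyrate (3.44 ± 0.37, edgeR adjusted p = 5.7e-07), and both agents over untreated gave 4.90 ± 0.43 (edgeR adjusted p = 2.3e-08). Butyrate added to IL-13 raised it (1.03 ± 0.32, edgeR adjusted p = 0.0271), a call lost when any of IL-13 replicates 2 and 3 and butyrate + IL-13 replicates 2 and 3 was left out (edgeR adjusted p of 0.0587 to 0.134). Butyrate alone gave 1.45 ± 0.56 (edgeR adjusted p = 0.129).

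Saa2, its near copy, had 16 counts with both agents (5, 5 and 6 by library), 5 with IL-13, all in replicate 2, and 1 each with butyrate and untreated. Both agents over untreated gave a count ratio of 27.4 (95% interval 4.25 to 1148) and over IL-13 3.55 (1.24 to 12.4); the intervals cover counting error only. In a fit with no filter on low counts, Saa2 was called for both agents over untreated (4.24 ± 1.39, edgeR adjusted p = 0.012), and both agents over IL-13 gave 1.77 ± 1.16 (edgeR adjusted p = 0.352), not called. Saa1 and Saa2 transcripts were 94.4% identical over 606 aligned bases with an identical run of 76, so how the authors' counting split reads between them is uncertain. Their summed counts rose with IL-13 (3.81, edgeR adjusted p = 1.0e-06) and with butyrate added to IL-13 (1.08, edgeR adjusted p = 0.0147).

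Lcn2, lipocalin 2, which withholds iron from bacteria, was near the limit of detection. It had 11 counts with both agents, 7 with IL-13, 9 with butyrate and 9 untreated. Both agents over untreated gave a count ratio of 2.09 (95% interval 0.788 to 5.71), and a difference was not detectable at this depth.

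Nos2, inducible nitric oxide synthase, had 0.870, 1.04 and 0.951 CPM with both agents, 1.66, 0.687 and 0.613 CPM with IL-13, 3.72, 2.13 and 3.96 CPM with butyrate, and 4.88, 4.50 and 3.27 CPM untreated. Libraries given IL-13 all lay below those without it, and within each of these sets the groups overlapped. It fell with IL-13 (-2.11 ± 0.35, edgeR adjusted p = 9.2e-05) and when IL-13 was added to butyrate (-1.78 ± 0.37, edgeR adjusted p = 0.0006). Butyrate gave -0.37 ± 0.29 alone (edgeR adjusted p = 0.513) and -0.04 ± 0.44 on top of IL-13 (edgeR adjusted p = 0.964).

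Dmbt1, a scavenger receptor that binds bacteria at mucosal surfaces, fell the furthest with IL-13 among the 7 tested genes. It had 9.09, 6.05 and 5.71 CPM with both agents, 5.12, 11.9 and 14.8 CPM with IL-13, 62.3, 83.4 and 92.03 CPM with butyrate, and 198, 234 and 209 CPM untreated. Both groups given IL-13 overlapped, and butyrate lay between them and untreated. The gene fell with IL-13 (-4.32 ± 0.24, edgeR adjusted p = 1.8e-10), with butyrate (-1.43 ± 0.20, edgeR adjusted p = 0.000192) and when IL-13 was added to butyrate (-3.51 ± 0.25, edgeR adjusted p = 3.7e-09). Butyrate added to IL-13 gave -0.62 ± 0.28 (edgeR adjusted p = 0.128), and without IL-13 replicate 1 it was called at -0.95 (edgeR adjusted p = 0.00619). The log2 difference between the butyrate effects with and without IL-13 was 0.81 ± 0.35 (edgeR adjusted p = 0.399). Goblet cell markers summed to 2132 to 2165 CPM with both agents, 3436 to 4434 with IL-13, 2602 to 3312 with butyrate and 3436 to 5052 untreated. Of 6 tested goblet markers, IL-13 raised Clca1 (1.62 ± 0.12) and lowered Zg16 (-3.75 ± 0.33), Agr2 (-1.95 ± 0.16) and Tff3 (-1.22 ± 0.15). Butyrate raised none and lowered 3, and butyrate added to IL-13 raised none and lowered 5. Their part in the result was not tested.

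Pigr, the receptor that carries polymeric IgA across the epithelium, was the most abundant member per kilobase in every group. It had 1686, 1736 and 1719.8 CPM with both agents, 1692, 1799.8 and 1695 CPM with IL-13, 1656, 1753 and 1668 CPM with butyrate, and 2339, 2347 and 2312 CPM untreated. The 9 treated libraries overlapped, and all lay below the 3 untreated ones. Pigr fell with IL-13 (-0.43 ± 0.07, edgeR adjusted p = 6.0e-05) and with butyrate (-0.46 ± 0.07, edgeR adjusted p = 0.000285). With both agents it fell by a log2 fold change of -0.44 ± 0.07 (edgeR adjusted p = 2.3e-05), where the single effects added on the log2 scale would give -0.89.

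The difference between the effects of butyrate with and without IL-13 was called for Pigr alone among the 7 (0.45 ± 0.10, edgeR adjusted p = 0.0306), where 0.865% of all genes were called, 0.255% higher and 0.611% lower. The members' median was 0.18 beside -0.02 over all genes. The call was lost in 9 of 12 fits that left out 1 library, with edgeR adjusted p of 0.0611 to 0.123; it held without butyrate replicate 2, butyrate replicate 3 or butyrate + IL-13 replicate 1. Under library totals alone it stood at 0.39 (edgeR adjusted p = 0.0634), and the fold change for IL-13 added to butyrate was 0.02 ± 0.07 with TMM and -0.21 with library totals alone (edgeR adjusted p = 0.0141).

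**Figure D3:**
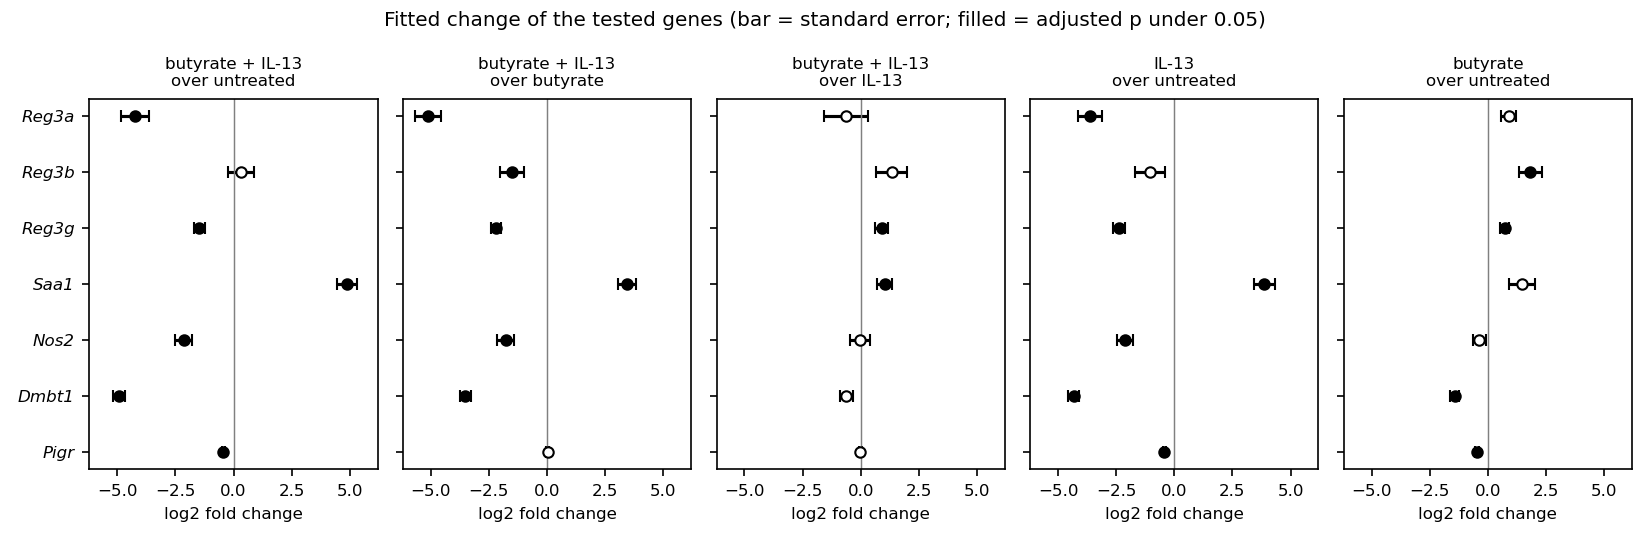
Fitted log2 fold change (horizontal axis) of the 7 tested genes in 5 comparisons, with the standard error as a bar and filled points for an edgeR adjusted p under 0.05. Saa1 lies to the right and Dmbt1 to the left in all 5 comparisons, further out where IL-13 is on one side only. Pigr stays within 0.46 of 0.

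**Figure D4:**
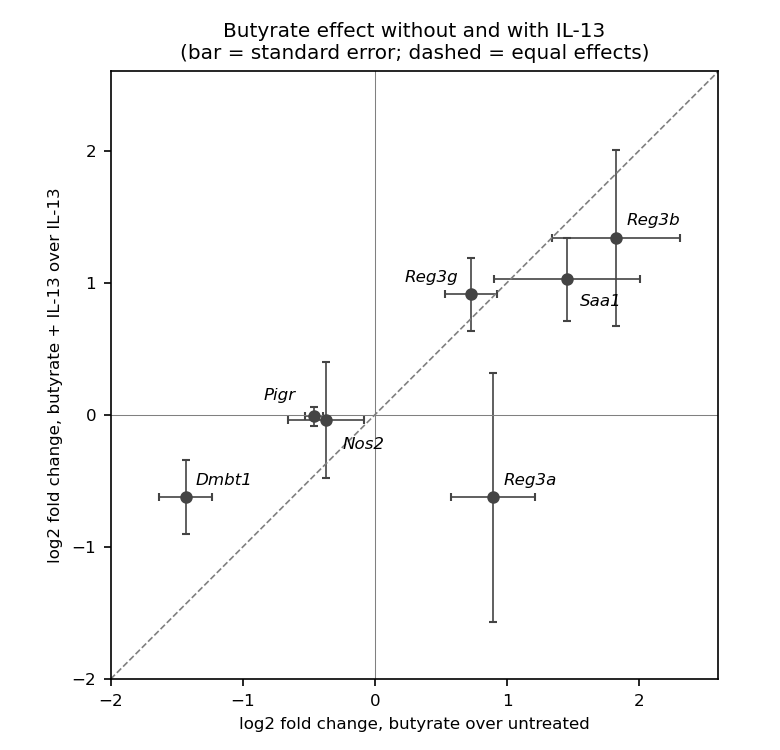
Log2 fold change for butyrate added to IL-13, over IL-13 (vertical axis), against butyrate over untreated (horizontal axis) for the 7 tested genes, with standard errors; the dashed line marks equal effects. Reg3b, Reg3g and Saa1 lie in the upper right, Reg3a in the lower right, and Dmbt1, Nos2 and Pigr in the lower left. On the vertical axis Nos2 stands at -0.04 and Pigr at -0.01. Only the distance of Pigr from the line was called.

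Per kilobase of transcript the order of the members changed with treatment. Pigr led in every group, at 445 CPM per kilobase with both agents and 606 untreated. The next was Saa1 with both agents (7.70) and with IL-13 (3.78), in each case overlapping Reg3g, whereas Reg3g came next with butyrate (27.7) and Dmbt1 untreated (34.0), neither overlapping its neighbour below.

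In the authors' deposited table of IL-13 against untreated, the log2 fold changes were -4.32 for Dmbt1, -2.38 for Reg3g, -3.66 for Reg3a, -2.10 for Nos2, -0.43 for Pigr and 3.94 for Saa1. The deposited table gave Reg3b -1.02 with an FDR of 0.361.

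For each tested gene, the genes with the most similar pattern over the 12 libraries were found by the root mean square difference of centred log2 CPM, among 10768 genes. For Reg3g they were Lyz1 (0.34), Akr1c19 (0.39) and Rdh7 (0.46), and for Dmbt1 they included Zg16 (0.55) and Eldr (0.68). Lyz1, the Paneth cell lysozyme, averaged 363 ± 85.5 CPM with both agents, 235 ± 51.9 with IL-13, 2101 ± 234 with butyrate and 843 ± 87.2 untreated. For Saa1 they were Slc20a1 (0.31), Gem (0.38) and Adm (0.42), and for Nos2 Cyp2b10 (0.36), Paqr7 (0.37) and E2f2 (0.41). For Pigr, whose own spread was small, they were Zscan21, Rprd1b and Ctsh (0.10, 0.10 and 0.11). In absolute difference Reg3a was matched less closely, by Ces1d (0.66), Eldr (0.74) and Cyp2e1 (0.75), and Reg3b by Clca4a (0.79), Ccl20 (0.81) and Mrc1 (0.81). The difference depends on a gene's own spread. As a root mean square, that spread was 1.91 for Reg3a and 1.27 for Reg3b, against 1.01 for Nos2 and 0.196 for Pigr. The gene closest to Reg3a was AY761184 (0.61), which was left out of the search for its accession-style symbol after this had been seen.

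Of 33 tested genes for other secreted or surface defence proteins, 14 were higher and 10 lower with IL-13, where 21.8% of all genes were called higher and 21.7% lower. The oxidase Duox2 rose by a log2 fold change of 4.14 ± 0.10 and its maturation factor Duoxa2 by 4.63 ± 0.12, as did the antimicrobial Sprr2a3 (4.14 ± 0.11) and Mptx1 (3.09 ± 0.25). With butyrate, where 5.14% of all genes were called higher and 2.76% lower, 3 were higher, among them Lyz1 (1.32 ± 0.16) and Lypd8 (0.99 ± 0.11), a protein that binds flagella, and 3 lower, among them Duoxa2 (-0.65 ± 0.11) and Tff3 (-0.60 ± 0.15). Butyrate added to IL-13, where 9.85% of all genes were called higher and 11.3% lower, gave 6 higher and 10 lower, with Mptx1 (-3.04 ± 0.26), Reg4 (-1.50 ± 0.18), Ang4 (-1.20 ± 0.15) and Tff3 (-1.19 ± 0.16) among those that fell. The list's median log2 fold change was 0.13 with IL-13, 0.01 with butyrate and -0.16 with butyrate added to IL-13.

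Of 25 tested cytokine receptor and STAT3 pathway genes, 14 were higher and 2 lower with IL-13, 4 and 0 with butyrate, and 8 and 0 with butyrate added to IL-13, with medians of 0.29, 0.07 and 0.21. Over all genes tested, the shares called higher and lower were 21.8% and 21.7%, 5.14% and 2.76%, and 9.85% and 11.3% in the same order. Fut2, a fucosyltransferase induced through STAT3 in mice, rose with IL-13 (2.07 ± 0.16) and further with butyrate added to it (0.93 ± 0.15). Ifngr1, an interferon gamma receptor chain, rose with butyrate (0.52 ± 0.07) and with butyrate added to IL-13 (0.50 ± 0.07). Ifngr2, its partner chain, rose with IL-13 (0.92 ± 0.07).

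Of 36 tested NF-kB and innate sensing genes, 12 were higher and 5 lower with IL-13, 3 and 0 with butyrate, and 10 and 2 with butyrate added to IL-13, with medians of 0.10, 0.02 and 0.14. With IL-13, 21.8% of all genes were called higher and 21.7% lower, and with butyrate 5.14% and 2.76%. With butyrate added to IL-13 the shares were 9.85% and 11.3%. In either direction they were 43.5%, 7.9% and 21.2%. With directions pooled, the list's counts for IL-13 and butyrate were near these shares. By direction, the list's IL-13 calls were mostly higher while those over all genes were even, and this tilt was not tested. The inhibitor Tnfaip3 (0.55 ± 0.08) and the subunit gene Nfkb2 (0.79 ± 0.12) rose with IL-13, and the chemokine Ccl20 rose with butyrate (1.02 ± 0.18). Butyrate added to IL-13 raised the inhibitor Tnip1 (0.51 ± 0.11) and the subunit gene Relb (0.45 ± 0.10) and lowered Irak3 (-1.72 ± 0.37), a brake on Toll-like receptor signalling.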

How the data were processed

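Poly(A) RNA of 12 enteroid libraries was sequenced with a directional protocol, per the labels. The deposited table held whole-number counts per gene, which the authors had not normalised, in 18092 rows (18068 genes after rows of 23 symbols were summed), on mm10 per the submitters' processing notes. Alongside stood p-values, FDRs and log2 fold changes of the authors' own DESeq test of IL-13 against untreated libraries; per the file headers, rows had a corrected p under 1 in it. The sources used here give no aligner, counting tool or strand setting. Current symbols came from GENCODE by identifier (98.4% of rows).

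Genes were tested with edgeR 4.0.16 (R 4.3.3; TMM, filterByExpr, robust quasi-likelihood, 1 coefficient per group over all 12 libraries, 8 residual degrees of freedom), with Benjamini-Hochberg adjustment over 13750 genes. Alternatives were RLE, library totals alone, DESeq2 1.42.0, no filter, a mean of at least 50 counts, only the groups compared, summed paralogs, thinned counts, a replicate block, and libraries left out. Same-numbered libraries of different groups did not deviate together (r from -0.15 to 0.097), so numbers were not treated as pairs.

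The 9 genes and all lists were chosen with earlier results of these data known. Named were the 9 genes, up to 4 called genes with the smallest adjusted p per list and comparison, and per member the 3 genes most alike with a mean of at least 50 counts, predicted-gene and clone symbols skipped; some of these genes are not reported here. Symbols in the style of a sequence accession were counted as clone symbols only after AY761184 (root mean square log2 difference 0.61) had been seen to come closest to Reg3a. Promoter sequences are from RefSeq.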

Additional observations from a re-analysis of the deposited data

Results flagged for a closer look

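The effect of butyrate on Pigr differed with IL-13 present and absent, by a test of the difference itself: the log2 fold change was -0.01 ± 0.07 with IL-13 and -0.46 ± 0.07 without, a difference of 0.45 ± 0.10 (edgeR adjusted p = 0.0306). All 3 libraries given butyrate alone lay below all 3 untreated ones, while those with both agents overlapped those with IL-13. Over the fits that left out 1 library the difference ran from 0.43 to 0.48, with edgeR adjusted p of 0.0211 to 0.123.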

How the results depend on the processing

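Of 375 results of single members under other settings, 367 kept their direction and side of the threshold, as did 465 of 504 with 1 library left out. The 504 include fits that left out a library of a group not in the comparison, so this share overstates how firm single calls were. The butyrate call of Reg3g was lost without any of 5 libraries and that of Reg3b without any of 4, all from the groups compared. Pigr for butyrate added to IL-13, at -0.013, changed sign to 0.0113 with RLE and 0.0113 with DESeq2, and for IL-13 added to butyrate to -0.21 with library totals alone. The interaction called 119 genes with edgeR and 265 with DESeq2, and 0 members higher with library totals alone. With no filter, 2 members were higher in both agents over butyrate and over untreated, since Saa2 was then tested. A mean of at least 50 counts left fewer members in the test, of which IL-13 raised 0 and lowered 3, with 1 higher for butyrate, 1 higher with butyrate added to IL-13, 0 higher and 2 lower with IL-13 added to butyrate, and 0 higher and 3 lower with both over untreated. Without both libraries highest in Lars2, 1 member was higher with butyrate.

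With 1 library left out, butyrate called 559 to 1395 genes and 0 to 2 members higher, butyrate added to IL-13 1935 to 3451 genes, 0 to 2 members higher and 0 to 1 lower, and the interaction 55 to 213 genes and 0 to 1 member higher. IL-13 called 4923 to 6473 genes and 5 to 6 members lower, IL-13 added to butyrate 5586 to 6632 genes and 4 to 5 lower, and both over untreated 7376 to 8558 genes. Signs changed for Nos2 (-0.29 to 0.55) and Pigr (-0.0279 to 0.0199) with butyrate added to IL-13, and in the interaction for Reg3b (-1.08 to 1.18), Reg3g (-0.10 to 0.49) and Saa1 (-0.67 to 0.071), all uncalled; the cause was not tested.

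The replicate block changed no call in 42 results of single members, with 5866 genes for IL-13 and 978 for butyrate; of 18 same-numbered pairs 0 correlated above 0.1, and 2 of 12 libraries correlated best with their own number. Counts of Lcn2, Saa2 and Reg3a limit what depth can show.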

Other observations

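Other genes of the same families gave these values. Reg1, which lies between Reg3a and Reg3g on chromosome 6, averaged 0.964 ± 0.439 CPM with both agents, 0.783 ± 0.387 with IL-13, 3.62 ± 1.16 with butyrate and 3.67 ± 1.46 untreated. It fell with IL-13 (log2 fold change -2.22 ± 0.41, edgeR adjusted p = 0.000274), and butyrate gave -0.02 ± 0.33 (edgeR adjusted p = 0.985). Reg4, a goblet and enteroendocrine cell lectin, averaged 143 ± 51.8 CPM with both agents, 403 ± 54.3 with IL-13, 484 ± 14.8 with butyrate and 565 ± 66.4 untreated, and fell when butyrate was added to IL-13 (-1.50 ± 0.18, edgeR adjusted p = 1.9e-05). Saa3, on chromosome 7 near Saa1, averaged 1.03 ± 0.524 CPM with both agents, 0.575 ± 0.27 with IL-13, 0.727 ± 0.322 with butyrate and 0.473 ± 0.22 untreated; IL-13 gave 0.24 ± 0.58 (edgeR adjusted p = 0.763). Saa4 had 3 counts over all 12 libraries.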
